A study of Mus musculus with 6 samples.

Results

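CD8+ T cells with very high levels of the adhesion receptor CD44 after 18 h of culture were compared with cells of the same genotype with low CD44, in wild-type (WT) and in Dusp2-deficient mice. Genes were kept when their mean over the 6 libraries was at least 1 FPKM (fragments per kilobase of transcript per 1000000 mapped reads), which left 9691 of the 18122 rows of the table. The members described are the 6483 of these genes (66.9%) whose CD44hi minus CD44lo difference had the same sign in WT and in Dusp2KO, 3850 of them (39.7%) higher and 2633 (27.2%) lower in CD44hi. Just inside the limit on the mean stood 1700010I14Rik and Aldh2, both at 1.00 FPKM, and just outside it stood Slc16a3 at 0.995 FPKM and Zfp606 at 0.997 FPKM.

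The series holds 6 RNA-seq libraries. CD8+ T cells from lymph nodes were stimulated for 18 h on plates coated with anti-CD3 (1 µg/mL) together with anti-CD28 (1 µg/mL) and the cytokines IL-4 (20 ng/mL) and IFN-α (50 ng/mL), which the study's design text describes as a way to induce virtual memory T cells in culture. All 6 libraries come from cells given this same stimulation, both cytokines included, and they were then sorted into a fraction with very high CD44, written CD44hi here, and a fraction with low CD44, CD44lo. There were 2 WT CD44hi, 2 Dusp2KO CD44hi, 1 WT CD44lo and 1 Dusp2KO CD44lo libraries. The knockout is named Dusp2-/- in the design text, whereas the treatment text of the labels names Cd4-Cre Rpa1fl/fl mice in that place. Strain, age and sex are not given in the labels. The labels do not say whether 2 libraries of a group came from separate mice or cultures, so the p-values below measure only the spread between these libraries, which may be technical, and the lone CD44lo library of each genotype is assumed to vary like the CD44hi pairs.

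CD44 binds hyaluronan, is low on naive T cells and is raised by antigen receptor signalling and on memory cells. Virtual memory cells are CD8+ T cells that take on memory traits without having met a foreign antigen, under cytokines such as IL-4, IL-15 and type I interferon; they are known for high CD44, high IL-2 receptor beta chain (Il2rb) and the T-box factor Eomes. Naive T cells recirculate through lymph nodes and rest out of division with genes such as Ccr7 (entry), S1pr1 (exit), Klf2 and Il7r, and activation raises cytokines, granzymes, growth metabolism and, after many hours, DNA synthesis. DUSP2 is a nuclear phosphatase of MAP kinases and is itself induced by activation.

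The libraries held 23490008 to 55830235 reads, as recovered from the FPKM steps, with the Dusp2KO CD44lo library the shallowest. The first principal component carried 61.5% of the variance. The sort marker Cd44 stood at 79.9, 65.3, 65.4 and 66.3 FPKM in the CD44hi and 1.43 and 1.33 FPKM in the CD44lo libraries, in the order WT and then Dusp2KO, as the sort requires. Dusp2 stood at 82.6 and 83.9 FPKM in WT CD44hi and 116 in WT CD44lo, and at 0, 0.0283 and 0 FPKM in the 3 Dusp2KO libraries, while Rpa1 was present in all 6 at 27.4 to 41.4 FPKM. Of the 8 CD8 T cell markers in the table all were present, Cd8a at 246 to 358 FPKM, and their summed level was 1179.5 to 1435 FPKM in CD44hi and 1727 to 1732 in CD44lo. Cd4 was at most 0.0228 FPKM, and Jchain, Mzb1, Lyz2, Flt3, Klrb1c and Tyrobp were at or near 0 in all libraries; Ighm stood at 110.4 to 139.6 FPKM in both fractions beside Cd79a at no more than 0.379 FPKM. The B cell marker Cd79b was called higher, at 12.2, 9.88, 22.4 and 24.5 FPKM in the CD44hi and 6.92 and 11.2 FPKM in the CD44lo libraries, with the summed B cell markers at 123 to 151 FPKM in CD44hi and 142 to 151 in CD44lo, and its part in the results was not tested. The summed markers of CD4 T cells, mostly Cxcr5, were at 2.25 to 2.61 FPKM in CD44hi and 0.468 to 0.756 in CD44lo. Those of plasma cells, mostly Sdc1, were at 1.00 to 2.54 and 0.237 to 0.572. Regulatory T cell markers summed to 3.82 to 4.78 FPKM in CD44hi and 2.94 to 3.28 in CD44lo. Gamma delta T cell markers summed to 5.31 to 6.12 and 2.55 to 5.03. Those of macrophages, mostly Cd68, summed to 3.24 to 4.11 and 2.85 to 2.92. Dendritic cell markers summed to 4.88 to 7.72 and 4.85 to 7.26, with Itgax called higher in CD44hi (0.90). The part of these markers in the results was not tested. Xist, which marks female cells, was at 15.1 and 15.5 FPKM in Dusp2KO CD44hi but at 0 in Dusp2KO CD44lo and at no more than 0.00641 FPKM in WT, whereas the Y-linked Ddx3y was at 10.3 to 13.6 FPKM in all 6, so in Dusp2KO the 2 fractions differ in this marker and its part in the differences was not tested. The share of reads from the 13 mitochondrial genes was 2.15 and 2.03% in WT CD44hi, 2.73 and 2.94% in Dusp2KO CD44hi, 2.56% in WT CD44lo and 3.80% in Dusp2KO CD44lo.

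A gene was called when the adjusted p of limma (Benjamini-Hochberg, over 9691 genes) for the fraction, with genotype in the model, was under 0.05 and the sign was the same in both genotypes. Of all genes tested 2655 (27.4%) were called, 1610 (16.6%) higher and 1045 (10.8%) lower in CD44hi, and these shares are the background for each list below. Differences are on the log2(FPKM + 1) scale, CD44hi minus CD44lo, with the standard error of the fit. Most were modest: the median size among called genes was 0.515, and 365 genes (3.77%) differed by at least 2-fold, 229 (2.36%) of them higher and 136 (1.4%) lower. In 3853 genes (39.8%) all 4 CD44hi libraries lay on the same side of both CD44lo libraries, above them in 24.6% of genes and below in 15.1%. The split between higher and lower depends on the scaling. Calls that were higher made up 60.6% of all calls with FPKM as deposited, 47.5% after median-ratio scaling (1251 higher and 1382 lower) and 49.4% once the trend on gene length was removed (1549 and 1585), and the median difference over all genes moved from 0.05 to -0.01 under median-ratio scaling. Without WT CD44hi 1, Dusp2KO CD44hi 1 or Dusp2KO CD44hi 2 the genes called higher numbered 913, 975 and 928; those called lower numbered 690 without Dusp2KO CD44hi 1, 642 without Dusp2KO CD44hi 2 and 1599 without WT CD44lo. Leaving out a CD44lo library means that the fractions are compared in the other genotype only, where the rule on the sign has no effect. This holds for the 1599 and for such counts below.

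**Figure D1:**
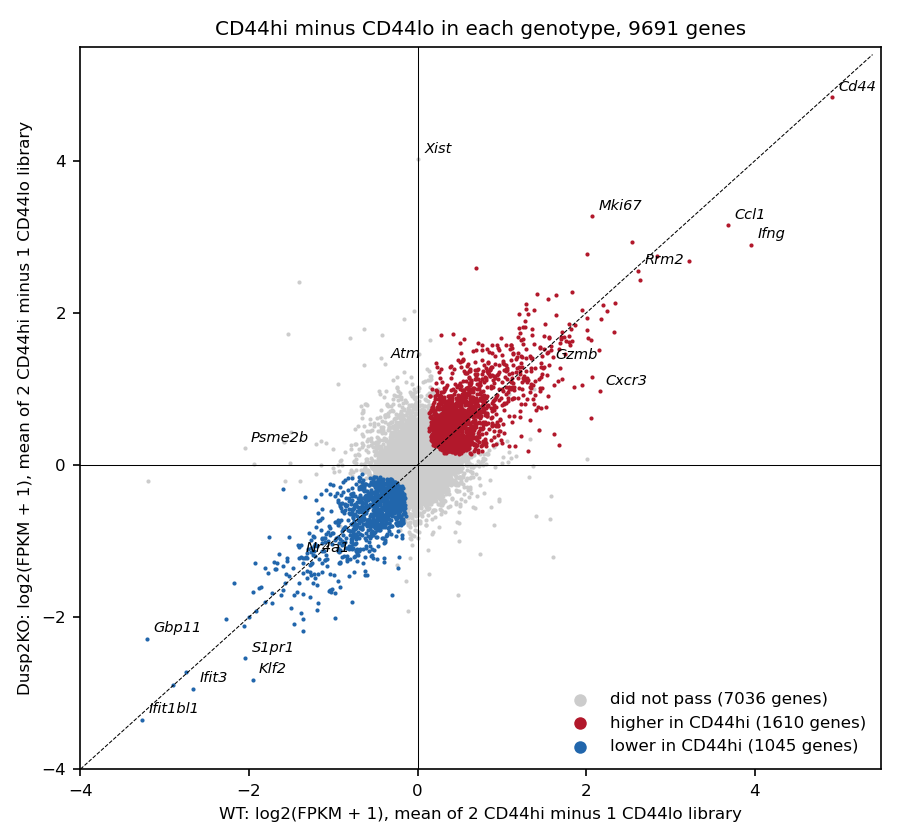
Difference between CD44hi and CD44lo in WT (horizontal axis) and in Dusp2KO (vertical axis), both on the log2(FPKM + 1) scale, 1 point per gene; red and blue points were called higher and lower, grey points were not called, and the dashed line marks equal differences. Cd44, Ifng and Ccl1 stand at the upper right and Ifit1bl1, Ifit3 and Klf2 at the lower left, while Xist stands on the vertical axis.

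Ifng and the chemokine Ccl1 had the largest rises beside Cd44 among the named genes. Of 20 cytokine and chemokine genes tested, 10 were called higher and 3 lower, with a median difference of 0.47 against 0.05 over all genes. That median was 0.06 without WT CD44lo, close to the median of all genes, and 0.84 without Dusp2KO CD44lo, where 5 were lower. Ifng, the type II interferon that CD8 T cells use against infected cells, was read at 217 and 186 FPKM in WT CD44hi and 571 and 601 in Dusp2KO CD44hi, against 11.9 in WT CD44lo and 77.7 in Dusp2KO CD44lo. All 4 CD44hi libraries lay above both CD44lo libraries, and the level in the Dusp2KO CD44lo library was itself above that in WT CD44lo. The difference was 3.43 ± 0.22 (adjusted p = 7.72e-05, limma). Ccl1, a chemokine that draws CCR8-bearing cells, reached 20.5 and 17.2 FPKM in WT CD44hi and 28.3 and 30.9 in Dusp2KO CD44hi, against 0.539 in WT CD44lo and 2.42 in Dusp2KO CD44lo (difference 3.42 ± 0.14, adjusted p = 1.52e-05). The myeloid chemokine Ccl9 followed at 2.95 and Ccl5, made by memory CD8 cells, at 1.82, with Ccl5 at 6.23, 7.41, 8.49 and 10.0 FPKM in the CD44hi and 1.25 and 1.83 FPKM in the CD44lo libraries. The other 6 called higher were Csf2 (2.74), Il3 (2.39), Csf1 (1.73), Ccl3 (1.44), Il2 (1.30) and Ccl4 (0.75), and for Ccl3, Il2 and Ccl4 the 2 sets of libraries overlapped. Of the 3 lower genes Ltb, a membrane-anchored lymphotoxin subunit, was at 185 FPKM in WT CD44lo and 227 in Dusp2KO CD44lo, against 66.9 and 71.7 in WT CD44hi and 80.7 and 72.1 in Dusp2KO CD44hi (difference -1.48 ± 0.09, adjusted p = 5.68e-05). Il16 (-0.88) and the interferon-induced chemokine Cxcl10 (-1.30) were also lower, and Tnf (-0.44), Lif (-0.43) and Xcl1 (0.19) did not pass.

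Cytotoxic granule genes were higher as well: 10 of 18 tested were called higher and 2 lower, with a median of 0.45. Gzmb, the granzyme that triggers apoptosis in target cells, was abundant in both fractions, at 2966 and 2419 FPKM in WT CD44hi and 3812 and 3859.6 in Dusp2KO CD44hi, against 904 in WT CD44lo and 1542 in Dusp2KO CD44lo. The CD44lo cells therefore also carried Gzmb, at a lower level, and the difference was 1.44 ± 0.14 (adjusted p = 0.000433). Gzma, a second granzyme, stood at 36.0, 30.1, 15.4 and 15.8 FPKM in the CD44hi and 6.60 and 4.83 FPKM in the CD44lo libraries (difference 1.83 ± 0.15). The serpin gene Serpinb6b (1.39) and Serpinb9 (1.34), an inhibitor of granzyme B, rose with them, while the pore former Prf1 (-0.10) and the granule protein Nkg7 (0.06) did not pass. Srgn, the proteoglycan core of the granule, was lower (-0.43), and so was the granule docking factor Unc13d (-0.25). Without WT CD44hi 1 the list had 6 higher calls, and its 2 lower calls were 0 without WT CD44hi 2, Dusp2KO CD44hi 1 or Dusp2KO CD44hi 2 and 1 without any of the other 3 libraries.

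Among surface molecules of activation and costimulation, 10 of 22 were called higher and 1 lower, with a median of 0.31. Tnfsf11, which encodes RANKL, a ligand for osteoclast precursors and dendritic cells, stood at 42.5 and 37.0 FPKM in WT CD44hi and 41.1 and 42.5 in Dusp2KO CD44hi, against 7.83 in WT CD44lo and 8.90 in Dusp2KO CD44lo. All 4 CD44hi values lay far above both CD44lo values, and the difference was 2.16 ± 0.08 (adjusted p = 1.52e-05). The costimulatory receptor Tnfrsf4 (OX40) rose by 1.43 and Cd83 by 1.23, and the transferrin receptor Tfrc by 1.15. Cd86, a costimulatory ligand, fell: it was at 3.71 FPKM in WT CD44lo and 5.13 in Dusp2KO CD44lo, against 0.929 and 1.01 in WT CD44hi and 1.22 and 1.28 in Dusp2KO CD44hi. The early activation antigen Cd69 did not pass, at 51.3, 40.3, 42.7 and 43.3 FPKM in the CD44hi and 55.3 and 49.2 FPKM in the CD44lo libraries (difference -0.23 ± 0.10, adjusted p = 0.135), with WT CD44hi 1 above Dusp2KO CD44lo. Of 14 inhibitory receptors and ligands 5 were higher, among them Havcr2 (TIM-3, 1.14), Cd200 (1.02) and Tigit (0.87), and 3 were lower, Vsir (-0.94), Cd274 (PD-L1, -0.71) and Nt5e (-0.40), while Ctla4 (-0.06) and Lag3 (-0.08) did not pass.

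**Figure D2:**
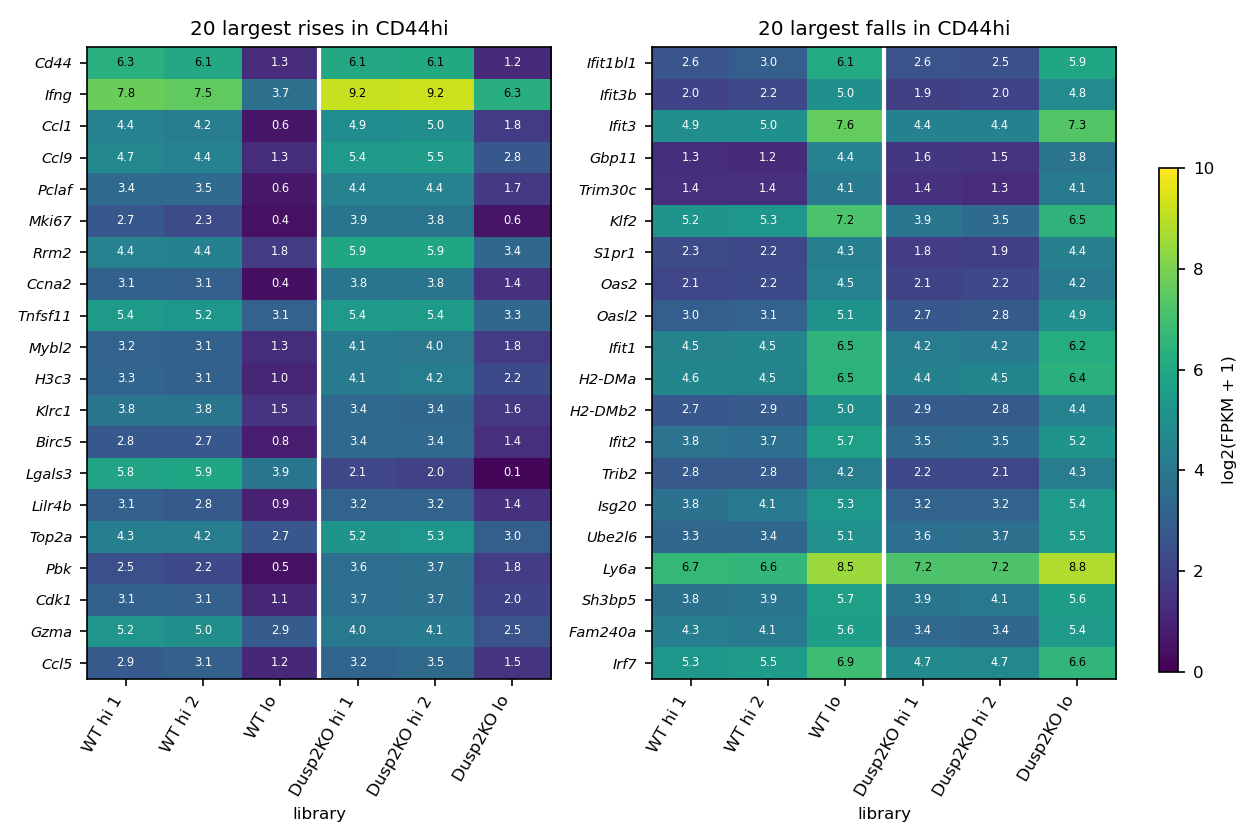
Level of the 20 genes with the largest rise (left) and the 20 with the largest fall (right) in CD44hi, as log2(FPKM + 1) by library, with WT left and Dusp2KO right of the white line in each panel; the number in each cell is its value. In each genotype both CD44hi columns lie on the same side of the CD44lo column for all 40 genes, and Lgals3 is low in all 3 Dusp2KO libraries.

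Receptors for cytokines moved in both directions, 7 of 21 higher and 6 lower, with a median of 0.09. Il2rb, the beta chain shared by the IL-2 and IL-15 receptors, was read at 171 and 139 FPKM in WT CD44hi and 152 and 146 in Dusp2KO CD44hi, against 93.6 in WT CD44lo and 86.4 in Dusp2KO CD44lo (difference 0.75 ± 0.10, adjusted p = 0.00177). Il2ra, the high-affinity IL-2 receptor chain, rose by 0.70 ± 0.10 (adjusted p = 0.0026), with its Dusp2KO CD44lo level of 51.4 FPKM above both WT CD44hi levels of 48.9 and 41.0. The 2 chains of the IL-18 receptor rose together, Il18rap by 1.52 and Il18r1 by 0.76. On the lower side stood Il7r, the receptor for the survival cytokine of naive and memory cells, at 13.0 FPKM in WT CD44lo and 17.0 in Dusp2KO CD44lo, against 4.90 and 4.34 in WT CD44hi and 6.75 and 7.35 in Dusp2KO CD44hi (difference -1.24 ± 0.09, adjusted p = 0.000134). Ifngr1, a chain of the IFN-gamma receptor (-1.24), Tgfbr2 (-0.70) and Il4ra, the IL-4 receptor chain (-0.43), also fell.

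A list of 41 genes known from virtual memory and memory CD8 cells, of which 32 were tested, had 17 called higher and 4 lower and a median of 0.58 (0.36 without WT CD44lo). The NK-type receptor gene Klrc1 (NKG2A) was at 13.3 and 13.4 FPKM in WT CD44hi and 9.56 and 9.49 in Dusp2KO CD44hi, against 1.85 in WT CD44lo and 2.13 in Dusp2KO CD44lo (difference 2.04 ± 0.13, adjusted p = 8.86e-05). Klrk1 (1.49), Klra7 (1.497) and Klrd1 (0.65) rose with it. The summed level of the 5 NK cell markers in the table was 0.398 to 0.961 FPKM in CD44hi and 0.0903 to 0.203 in CD44lo; Klri2 made up most of it, and Klrb1c and Tyrobp were at 0 in both CD44lo and at no more than 0.265 FPKM in CD44hi. Cxcr3, a chemokine receptor of effector and memory cells, reached 32.6 and 27.2 FPKM in WT CD44hi and 23 and 21.5 in Dusp2KO CD44hi, against 5.89 in WT CD44lo and 10.8 in Dusp2KO CD44lo (difference 1.57 ± 0.24, adjusted p = 0.00321). Itgb1, the integrin beta 1 chain, was higher by 1.33 ± 0.13, and the galectin Lgals3 by 1.97 ± 0.09 although its level was far lower in Dusp2KO, at 56.3, 60.2, 3.42 and 2.90 FPKM in the CD44hi and 13.7 and 0.0902 FPKM in the CD44lo libraries. Neither T-box factor passed: Eomes stood at 66.3, 69.7, 68.6 and 68.3 FPKM in the CD44hi and 92.3 and 73.0 FPKM in the CD44lo libraries, the 4 CD44hi values being below both CD44lo values (difference -0.26 ± 0.09, adjusted p = 0.0766), and Tbx21 at 27.9, 27.6, 42.4 and 38.2 FPKM in the CD44hi and 23.5 and 37.5 FPKM in the CD44lo libraries (adjusted p = 0.158). Ly6c2, a memory marker (0.32), and Itga4 (-0.01) also did not pass. Among the 4 lower members were Ifit3 (-2.80), Plac8 (-1.22) and the survival factor Bcl2 (-0.86 ± 0.07, adjusted p = 0.000203).

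The broadest fall in CD44hi was in interferon-induced genes, although all cells had been cultured with IFN-α. Of 40 type I interferon response genes tested, 0 were called higher and 38 lower, against 10.8% of all genes, and their median difference was -0.94. In 37 of these 38, against 15.1% of all genes, each of the 4 CD44hi libraries was below both CD44lo libraries, the exception being Mx1. The members not called were Eif2ak2 (0.14) and Parp14 (-0.54). Leaving out any library in turn kept the number called lower within 1.5 times of 38, and median-ratio scaling gave 39. In a sum over cells, fewer interferon-responding cells and less interferon-induced RNA per cell cannot be told apart, and the same holds for every gene below.

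The IFIT genes, which encode proteins that bind viral RNA and block its translation, held the 3 largest falls of the list, Ifit1bl1, Ifit3b and Ifit3. Ifit3 was read at 196 FPKM in WT CD44lo and 159.8 in Dusp2KO CD44lo, against 28.5 and 31.8 in WT CD44hi and 20.1 and 19.8 in Dusp2KO CD44hi, so that no CD44hi library came near a CD44lo library (difference -2.80 ± 0.09, adjusted p = 7.74e-06). Ifit1 stood at 89.7 FPKM in WT CD44lo and 71.4 in Dusp2KO CD44lo, against 21.2 and 22.3 in WT CD44hi and 17.2 and 16.9 in Dusp2KO CD44hi (difference -2.0 ± 0.07). Ifit1bl1 had the largest fall of all named genes, -3.31 ± 0.11 (adjusted p = 9.35e-06), and Ifit3b, a near copy of Ifit3 with which it can share reads, fell by 2.90, so the 2 cannot be read as independent. Other large falls were in the antiviral RNA sensors and nucleases Oas2 (-2.15), Oasl2 (-2.09) and Isg20 (-1.77), the E3 ligase relative Trim30c (-2.74) and Ube2l6, the conjugating enzyme for ISG15 (-1.77). Irf7, the factor that amplifies type I interferon signalling, was at 117 FPKM in WT CD44lo and 95.7 in Dusp2KO CD44lo, against 38.3 and 43.3 in WT CD44hi and 25.8 and 24.5 in Dusp2KO CD44hi (difference -1.69 ± 0.11, adjusted p = 7.89e-05). Stat2 (-0.90) and Irf9 (-0.70), parts of the interferon-activated transcription complex, were both lower.

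The guanylate binding proteins and immunity-related GTPases, which IFN-gamma induces strongly and which attack vacuoles of intracellular microbes, fell without exception in this list: 19 of 19 tested were called lower, with a median of -0.99, and the count stayed within 1.5 times under each library left out. Gbp2 was at 510.3 FPKM in WT CD44lo and 429 in Dusp2KO CD44lo, against 153 and 162 in WT CD44hi and 165 and 167 in Dusp2KO CD44hi (difference -1.53 ± 0.10, adjusted p = 8.45e-05). Gbp8 (-1.55), Tgtp1 (-1.41) and Irf1 (-1.04), the factor through which IFN-gamma induces many of them, fell too. Gbp11, which is not in the list and is annotated as a transcribed pseudogene, fell by 2.75 (adjusted p = 0.000117, limma). Members of this family are close copies of each other and their single values are uncertain. Ifng itself was highest in the fraction in which these genes were lowest. Antigen presentation genes followed: 17 of 22 were lower and 2 higher, with a median of -0.45. Psmb10, an immunoproteasome subunit (-1.13), and the class I molecule H2-M3 (-1.02) fell most, with B2m at -0.55 and H2-K1 at -0.42, whereas the 2 that rose, Pdia3 (0.39) and Calr (0.33), are chaperones of the endoplasmic reticulum. Outside that list the class II chaperone genes H2-DMa (-1.92 ± 0.07) and H2-DMb2 (-1.87 ± 0.14) were among the 20 largest falls, while H2-Aa, H2-Ab1 and H2-Eb1 did not exceed 0.522 FPKM. The 2 higher calls of the list were 0 after median-ratio scaling and without WT CD44hi 1, Dusp2KO CD44hi 1, Dusp2KO CD44hi 2 or Dusp2KO CD44lo. The antigen presentation count of lower genes was 11 without WT CD44hi 1, 10 without Dusp2KO CD44hi 1, 8 without Dusp2KO CD44hi 2 and 11 without WT CD44lo.

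The sequence before the start of these genes was read because the transcription complex that type I interferon activates is known to bind an element built on GAAA repeats. The windows come from RefSeq promoters of build GRCm38.p6, which matched 7588 of 9688 tested symbols (78.3%), and are printed 5′ to 3′ on the gene's strand with the match to AAANNGAAA nearest the start, here on the opposite strand, in capitals. The window of Ifit1bl1 lies at chr19:34602033-34602102 on the minus strand. Those of Ifit1 at chr19:34640774-34640843, Ifit3 at chr19:34583377-34583446, Ifit3b at chr19:34607773-34607842 and Gbp2 at chr3:142620574-142620643 lie on the plus strand. The 4 IFIT genes, members of the 20 largest falls, and Gbp2, a guanylate binding protein, are shown because they held a match. Ifit2, Oas2, Oasl2, Irf7, Trim30c, Gbp11, Ube2l6 and Ly6a were searched in the same way and gave no window, for lack of a match or of a promoter. Isg20 held a match in 1 of 3 windows and is not printed.
Ifit1bl1: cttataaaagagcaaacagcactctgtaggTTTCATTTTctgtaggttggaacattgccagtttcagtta
Ifit1: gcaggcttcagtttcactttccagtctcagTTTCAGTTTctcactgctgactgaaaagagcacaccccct
Ifit3: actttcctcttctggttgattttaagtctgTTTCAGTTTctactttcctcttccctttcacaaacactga
Ifit3b: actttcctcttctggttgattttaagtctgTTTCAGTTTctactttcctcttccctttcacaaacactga
Gbp2: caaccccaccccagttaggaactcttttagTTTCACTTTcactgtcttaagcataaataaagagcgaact
The Ifit3 and Ifit3b windows are identical, and the Ifit1 window holds another match, left in lower case. In the 250 bases before the start, on either strand, AAANNGAAA was found in 38 of 110 genes called lower by at least 2-fold (34.5%), in 20 of 173 called higher by at least 2-fold (11.6%), in 15.4% of all genes called lower, in 7.43% of genes called higher and in 8.65% of all genes tested; over every gene in the promoter table the share was 10.8%. It was in 17 of 28 type I interferon genes (60.7%) and in 12 of 13 guanylate binding protein and related genes (92.3%). The shorter AANNGAAA, which every such match contains, was found in 43.6% of genes called lower by at least 2-fold, in 25.4% of those called higher by at least 2-fold and in 19.0% of all genes tested. These are counts of letters and show no binding.

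Genes of the cell cycle were higher in CD44hi almost throughout. Of 45 S phase genes 41 were called higher and 0 lower, with a median of 0.75, and of 36 genes of G2 and mitosis 34 were higher and 0 lower, with a median of 1.36. Mki67, the proliferation antigen, was at 5.66 and 3.84 FPKM in WT CD44hi and 13.7 and 13.3 in Dusp2KO CD44hi, against 0.351 in WT CD44lo and 0.491 in Dusp2KO CD44lo (difference 2.67 ± 0.26, adjusted p = 0.000434). Rrm2, the ribonucleotide reductase subunit that limits the supply of DNA precursors, was at 20.5 and 19.9 FPKM in WT CD44hi and 59.9 and 58.9 in Dusp2KO CD44hi, against 2.44 in WT CD44lo and 9.25 in Dusp2KO CD44lo. The Dusp2KO CD44hi libraries were the highest for both, and for Rrm2 the Dusp2KO CD44lo library was also above WT CD44lo (difference 2.59 ± 0.07, adjusted p = 5.82e-06). Cyclin A2 (Ccna2) rose by 2.54 ± 0.09, the PCNA-binding factor Pclaf by 2.79 ± 0.08, the cell cycle transcription factor Mybl2 by 2.06 ± 0.12 and the mitotic kinase Cdk1 by 1.85 ± 0.10. In the S phase list the replication initiators Mcm10 (1.71) and Cdc6 (1.68) and the checkpoint mediator Clspn (1.65) led, and Pcna (0.32) and Mcm2 (0.35) rose less. Of 21 genes of G1 control 13 were higher and 2 lower. Cyclin E2 (Ccne2, 1.44), E2f2 (1.22) and E2f1 (1.06) rose and the 2 that fell were inhibitors, Cdkn1b (p27, -1.02 ± 0.18) and Cdkn2d (p19, -0.95 ± 0.12), while the D cyclin genes Ccnd2 (0.08) and Ccnd3 (-0.09) did not pass. The lower count was 4 without Dusp2KO CD44lo.

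E2F factors are known to bind TTTCCCGC and TTTGGCGC in promoters of such genes. The window of Cdc6, at chr11:98907982-98908051 on the plus strand, is shown with its match to TTTCCCGC, on the opposite strand, in capitals. It is the only window found among the rising cell cycle genes searched. Mcm10, Ccna2, Rrm2, Mybl2, Cdk1, Mki67, Clspn, Pclaf, Birc5, E2f1, Tyms and Top2a gave none, for lack of a match or of a promoter.
Cdc6: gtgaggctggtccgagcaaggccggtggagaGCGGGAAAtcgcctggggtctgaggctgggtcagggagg
TTTCCCGC was found before the start of 3.51% of genes called higher, 1.12% of genes called lower and 2.28% of all genes tested, and TTTGGCGC in 2.08%, 0.249% and 1.13%. Of 37 S phase genes with a promoter, 8.11% held each of the 2, and 0 of 29 genes of G2 and mitosis held either.

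Anabolic genes rose in part. In the cholesterol and fatty acid list 24 of 34 were higher and 1 lower, with a median of 0.52 (0.32 without Dusp2KO CD44lo). The desaturases Fads2 (1.17), Scd2 (0.96) and Scd1 (0.95) rose most, Scd2 from 21.0 and 25.6 FPKM in CD44lo to 37.3, 28.2, 64.1 and 67.2 FPKM in CD44hi, and the single fall was the cholesterol exporter Abcg1 (-0.50). Of 34 genes of nucleotide and polyamine synthesis 19 were higher and 1 lower, led after Rrm2 by the thymidylate enzymes Tyms (1.28) and Tk1 (1.21). Of 28 genes of amino acid supply 17 were higher and 1 lower, led by asparagine synthetase (Asns) at 9.46 and 9.14 FPKM in WT CD44hi and 10.97 and 11.7 in Dusp2KO CD44hi, against 2.45 in WT CD44lo and 3.31 in Dusp2KO CD44lo (difference 1.55 ± 0.08, adjusted p = 4.4e-05). That count was 7 without WT CD44hi 1, 8 without Dusp2KO CD44hi 1, 7 without Dusp2KO CD44hi 2, 10 without Dusp2KO CD44lo and 11 after median-ratio scaling. Of 29 genes of endoplasmic reticulum folding 17 were higher and 0 lower, led by Sdf2l1 (0.73) and Pdia6 (0.72), and this count was 7, 8, 7 and 8 without the same 4 libraries and 10 after median-ratio scaling. The single lower calls of the cholesterol, nucleotide, amino acid and glycolysis lists were each lost without at least 1 of the libraries.

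Other growth lists differed among themselves. Of 56 genes of ribosome biogenesis 7 (12.5%) were higher and 0 lower, with 0 higher calls without WT CD44hi 1, Dusp2KO CD44hi 1 or Dusp2KO CD44hi 2 and 16 without WT CD44lo, and 2 after median-ratio scaling. Of 44 translation factors and tRNA synthetases 8 (18.2%) were higher, again 0 without any 1 of those 3 CD44hi libraries and 2 after median-ratio scaling, and 1 was lower, Wars (-0.75), a tryptophan tRNA synthetase that interferon induces. Glycolysis genes had 8 of 25 (32.0%) higher and 1 lower, the hexokinase Hk2 (0.84) and the glucose transporter Slc2a1 (0.61) among those that rose; the count was 5 without Dusp2KO CD44hi 1 or Dusp2KO CD44hi 2. Of 42 nuclear genes of the respiratory chain 0 passed in either direction by limma, with 4 higher in WT tested alone and 12 lower in Dusp2KO tested alone. Of 34 proteasome genes 1 passed, Psmg2 (0.38), and 3 were higher and 5 lower without WT CD44lo. The immunoproteasome subunit Psmb10, called lower (-1.13), was counted with antigen presentation and is not in the proteasome list. Myc, the factor that drives growth of activated T cells, did not pass (difference -0.11 ± 0.08, adjusted p = 0.329, limma). It was at 214, 219, 247 and 247 FPKM in the CD44hi and 226 and 277 FPKM in the CD44lo libraries, so the libraries of the 2 fractions overlapped.

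**Figure D3:**
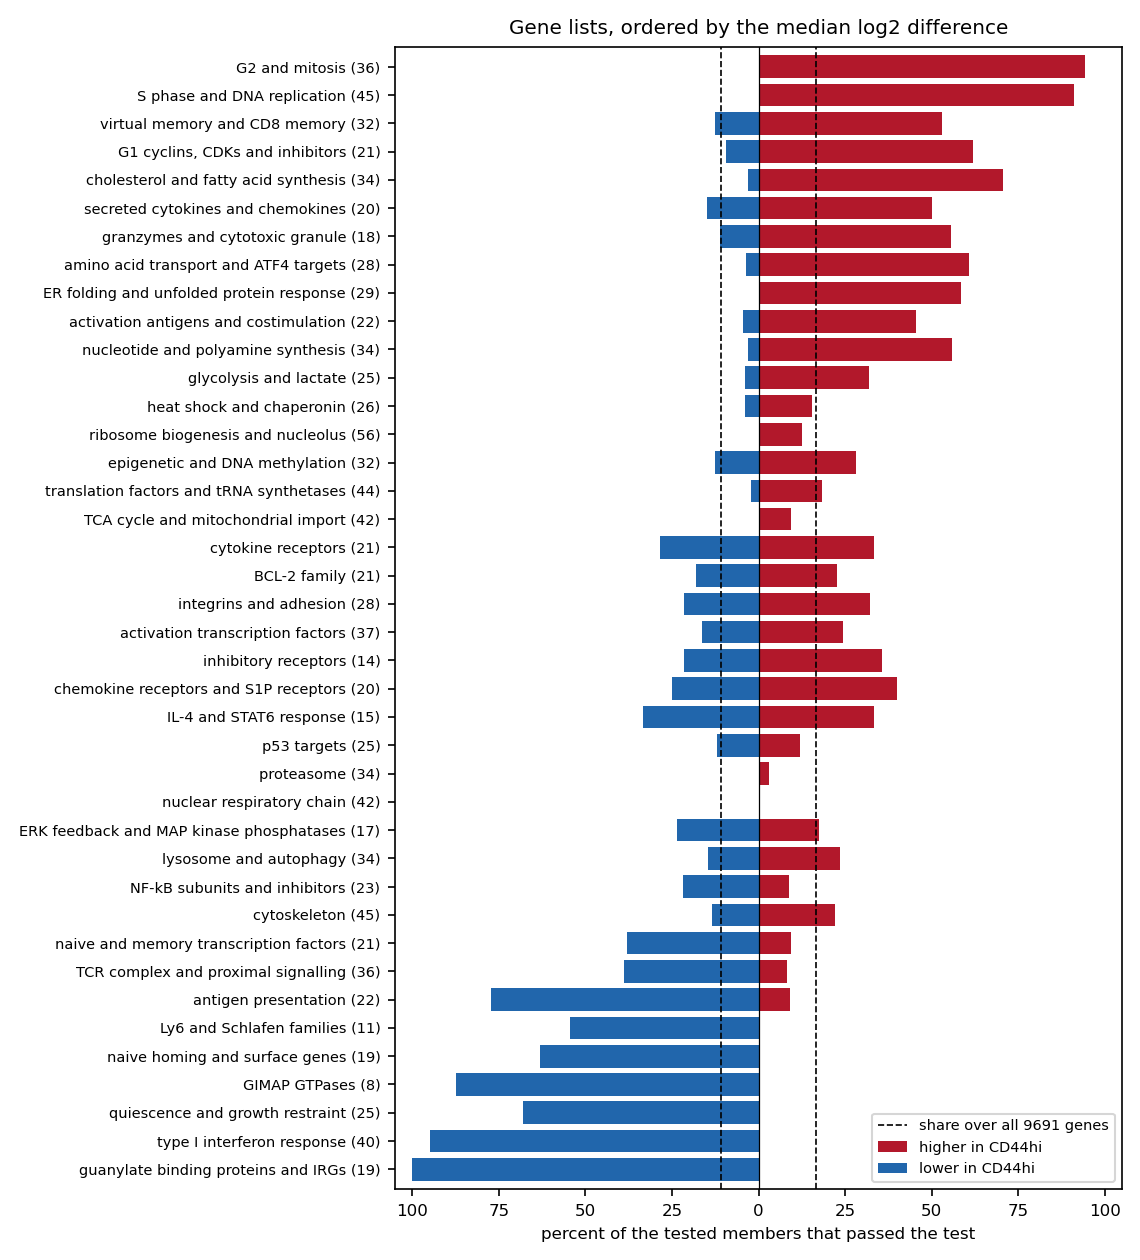
Share of the tested members of each of 40 gene lists that were called higher (red, right) or lower (blue, left) in CD44hi, with the number tested in brackets; dashed lines mark 16.6% and 10.8%, the shares over all genes. Lists of G2 and mitosis and S phase stand at the top with 94.4% and 91.1% higher, and the interferon lists at the bottom with 95.0% and 100% lower.

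Of 19 homing and surface genes of naive cells 12 were lower and 0 higher, with a median of -0.59. S1pr1, the receptor by which T cells leave the lymph node, was at 18.7 FPKM in WT CD44lo and 19.7 in Dusp2KO CD44lo, against 4.02 and 3.55 in WT CD44hi and 2.48 and 2.63 in Dusp2KO CD44hi (difference -2.29 ± 0.13, adjusted p = 5.11e-05). Klf2, the transcription factor that sustains S1pr1, was at 143 FPKM in WT CD44lo and 90.7 in Dusp2KO CD44lo, against 35.1 and 37.4 in WT CD44hi and 14.03 and 10.2 in Dusp2KO CD44hi (difference -2.39 ± 0.20, adjusted p = 0.000222). For both genes every CD44hi library was below both CD44lo libraries, and Klf2 was lowest in Dusp2KO CD44hi. Ccr7, a homing receptor of naive cells, did not pass, at 565, 446, 397 and 391 FPKM in the CD44hi and 459 and 393 FPKM in the CD44lo libraries (difference 0.07 ± 0.11, adjusted p = 0.701). Among transcription factors of naive and memory cells 8 of 21 were lower and 2 higher; Tcf7 (-0.84 ± 0.07, adjusted p = 0.00029) and Lef1 (-0.75 ± 0.09, adjusted p = 0.00108) fell, Sox4 (0.67) and Pou2f2 (0.26) rose, and Foxo1 (-0.15) and Bach2 (-0.19) did not pass.

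Genes that restrain growth fell with them, 17 of 25 lower and 0 higher, with a median of -0.73. Txnip, which limits glucose uptake, was at 48.3 FPKM in WT CD44lo and 41.0 in Dusp2KO CD44lo, against 18.1 and 18.5 in WT CD44hi and 11.9 and 12.0 in Dusp2KO CD44hi (difference -1.52 ± 0.09). Slfn5 (-1.52), the glucocorticoid-induced Tsc22d3 (-1.496) and Slfn1 (-1.33) followed. Schlafen genes are also counted in the Ly6 and Schlafen list below, so the falls of these lists are not separate results. Of the 8 GIMAP GTPases of lymphocyte survival 7 were lower, Gimap4 most (-1.502). In the Ly6 and Schlafen families 6 of 11 were lower and 0 higher, among them Ly6a (Sca-1), which interferon induces, at 365 FPKM in WT CD44lo and 451 in Dusp2KO CD44lo, against 100.03 and 96.9 in WT CD44hi and 145 and 148 in Dusp2KO CD44hi (difference -1.75 ± 0.09). Further falls among the 20 largest were Trib2 (-1.78 ± 0.14), a pseudokinase, Sh3bp5 (-1.73 ± 0.10), which binds the kinase BTK, and Fam240a (-1.69 ± 0.15).

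Genes of antigen receptor signalling were lower more often than higher, 14 of 36 lower and 3 higher, with a median of -0.20. Cd2 (-0.96 ± 0.07), Sla2 (-0.88) and the CD3 zeta chain Cd247 (-0.86) fell most, and Cd8a fell by 0.41. Cd5 (0.80 ± 0.10, adjusted p = 0.00145, limma) and Cd6 (0.69 ± 0.10) rose. The count of lower genes was 9 without Dusp2KO CD44hi 1 or Dusp2KO CD44hi 2, and that of higher genes 6 without WT CD44lo. Transcription factors of activation moved both ways, 9 of 37 higher and 6 lower, or 9 and 12 after median-ratio scaling, and 10 were lower without Dusp2KO CD44lo. Batf3 (1.17), Rbpj (0.96) and Nfil3 (0.87) rose, and Irf4, a factor graded with receptor signal strength, was at 103 and 92.6 FPKM in WT CD44hi and 125 and 128 in Dusp2KO CD44hi, against 65.2 in WT CD44lo and 87.1 in Dusp2KO CD44lo (difference 0.56 ± 0.08, adjusted p = 0.00222). Against that, Nr4a1, an immediate early gene of receptor signalling, was at 95.1 FPKM in WT CD44lo and 167 in Dusp2KO CD44lo, against 35.6 and 35.0 in WT CD44hi and 71.4 and 70.2 in Dusp2KO CD44hi (difference -1.31 ± 0.08, adjusted p = 5.61e-05). Egr1 was at 45.3 FPKM in WT CD44lo and 58.4 in Dusp2KO CD44lo, against 15.9 and 16.7 in WT CD44hi and 27.7 and 27.4 in Dusp2KO CD44hi (difference -1.24 ± 0.10) and Jun fell by 1.09. These 3 were highest in CD44lo in each genotype, though the Dusp2KO CD44hi values of Nr4a1 approached WT CD44lo. Batf (0.22), Egr2 (0.19), Nr4a3 (-0.20) and Fos (-0.29) did not pass. A list of 10 genes that tissue handling can induce, of which 7 were tested, summed to 172 to 216 FPKM in CD44hi and 263 to 335 in CD44lo with 4 called lower, Jun, Egr1, Zfp36 and Dnajb1, and its part in the falls of Jun and Egr1 was not tested.

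Targets of IL-4 through STAT6 were split, 5 of 15 higher and 5 lower. Ccr4 (0.97), Nfil3 and Gata3, the factor of type 2 immunity (0.61 ± 0.09, adjusted p = 0.00223), rose, and the cytokine signalling inhibitors Socs3 (-0.96) and Socs1 (-0.80), with Ecm1 (-0.99), fell. MAP kinase feedback genes had 3 of 17 (17.6%) higher, near the 16.6% of all genes, namely Dusp4 (0.83), Ier3 (0.67) and Spry2 (0.50). The 4 lower (23.5%) were Rasa3 (-0.84), Dusp10 (-0.52), Dusp5 (-0.51) and Dusp1 (-0.45). Chemokine receptors had 8 of 20 higher and 5 lower, Cxcr3 and Ccr4 among the rises; the higher count was 5 without WT CD44hi 1 or Dusp2KO CD44hi 2. The lower count was 8 without WT CD44lo and 3 without Dusp2KO CD44lo. In the BCL-2 family 5 of 22 rows, Bcl2l2 having 2, were higher, with Birc5 (survivin, 1.99) and Bcl2l1 (BCL-XL, 0.67 ± 0.07) among them, and 4 were lower, Bcl2 most, so that Bcl2 and Bcl2l1 moved in opposite directions; without WT CD44hi 1 the counts were 3 and 2, and without Dusp2KO CD44lo 2 were lower. Of 32 epigenetic regulators 9 were higher, led by Nsd2 (1.06), Ezh2 (0.94) and Dnmt1 (0.78), and 4 lower. The higher count was 4 and the lower count 2 without WT CD44hi 1, Dusp2KO CD44hi 1 or Dusp2KO CD44hi 2, and the lower count was 2 without WT CD44lo and 10 without Dusp2KO CD44lo; median-ratio scaling left 5 higher.

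**Figure D4:**
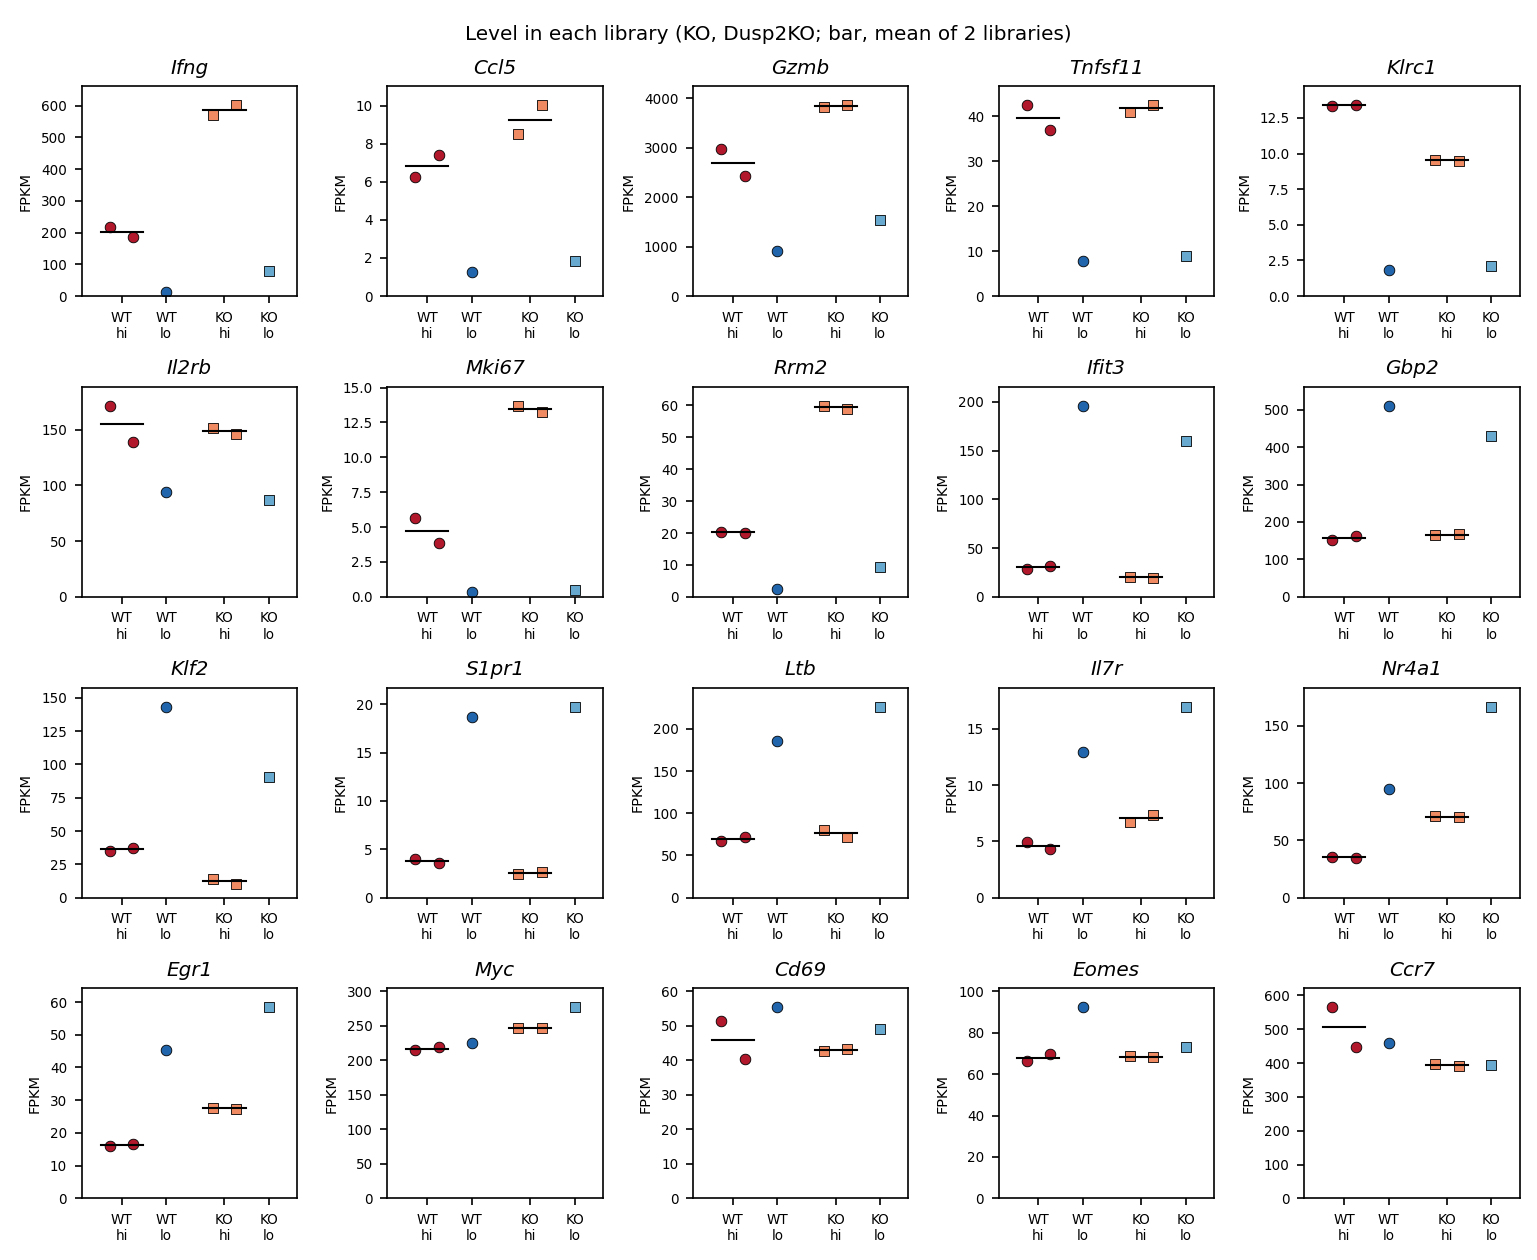
Level of 20 genes in each library, in FPKM on linear axes that start at 0; circles are WT and squares Dusp2KO, red tones CD44hi and blue tones CD44lo, and short black lines are the mean of 2 libraries. Ifng, Gzmb and Mki67 are higher in CD44hi, Ifit3, Klf2 and Ltb are lower, and for Myc, Cd69, Eomes and Ccr7 the difference did not pass.

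Tested within each genotype, the WT fractions gave 1490 genes higher (15.4%) and 1037 lower (10.7%) in CD44hi, and the Dusp2KO fractions 2285 higher (23.6%) and 1603 lower (16.5%), at an adjusted p under 0.05 in limma. Both counts rest on 2 against 1 libraries. The WT higher count was 2463 without WT CD44hi 2, the WT lower count 1626 without WT CD44hi 1, and the Dusp2KO lower count 1028 without Dusp2KO CD44hi 1 and 969 without Dusp2KO CD44hi 2. Of the genes called in WT 64.8% were also called in Dusp2KO, and of those called in Dusp2KO 42.1% were also called in WT; 1638 genes were called in both, 1555 of them in the same direction. The S phase genes had 39 higher in WT and 40 in Dusp2KO, the type I interferon genes 37 lower in each, and the growth restraint genes 18 and 17 lower.

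The 83 genes called in both but in opposite directions differed in transcript length. The 58 that were lower in WT CD44hi and higher in Dusp2KO CD44hi had a median length of 9321 bases and the 25 with the reverse pattern 1567 bases, against 4321 bases over all genes tested. Across all genes the Spearman correlation of the difference with length was -0.09 in WT and 0.34 in Dusp2KO, where the CD44lo library is the shallowest; this is a description over genes that share libraries. Atm was among the genes whose sign depended on the genotype, at 7.36, 6.65, 10.3 and 10.8 FPKM in the CD44hi and 9.46 and 3.61 FPKM in the CD44lo libraries.

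The difference between fractions itself differed between genotypes (interaction, adjusted p under 0.05 in limma) for 409 genes (4.22%). Of these 287 had opposite signs and so are not members, 78 were called members and 44 had the same sign without being called. Among the 78, the difference was larger in Dusp2KO for 47 and larger in WT for 31. Ifng rose by 3.96 in WT and 2.90 in Dusp2KO (interaction -1.06 ± 0.16, adjusted p = 0.0331), its CD44lo level being higher in Dusp2KO. Cxcr3 rose by 2.16 in WT and 0.97 in Dusp2KO (interaction -1.19 ± 0.17, adjusted p = 0.0323). Gbp11 differed by -3.21 in WT and -2.28 in Dusp2KO, and Cdkn1b by -0.60 and -1.45. Top2a, the topoisomerase of dividing cells, rose by 1.55 and 2.19. Transcript lengths were 1316 bases for Ifng, 1758 for Cxcr3, 2735 for Gbp11, 4624 for Cdkn1b and 9156 for Top2a. The correlation of the difference with length was -0.09 in WT and 0.34 in Dusp2KO. The interaction was not fitted with the trend on gene length removed, so the part of length in it was not tested. Without WT CD44hi 1 or WT CD44hi 2 the interaction called 1633 and 821 genes higher and 1413 and 913 lower in Dusp2KO, against 265 (2.73%) and 144 (1.49%) with all libraries.

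**Figure D5:**
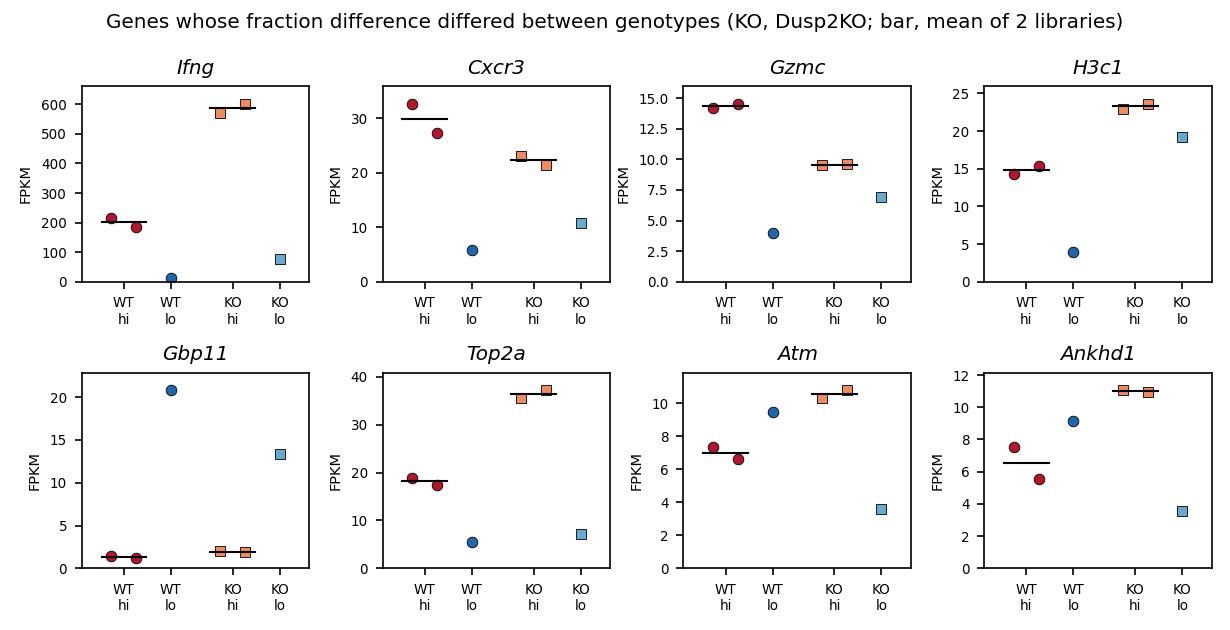
Level in each library, in FPKM on linear axes that start at 0, of 8 genes whose CD44hi minus CD44lo difference differed between genotypes (adjusted p under 0.05); symbols are as in the plot of 20 genes. On the log2(FPKM + 1) scale of the test, Ifng, Cxcr3, Gzmc and H3c1 have the larger difference in WT, Top2a the larger in Dusp2KO and Gbp11 the larger fall in WT; in FPKM the Ifng difference is larger in Dusp2KO, and Atm and Ankhd1 opposite signs.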

How the data were processed

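The authors deposited 1 table of FPKM per gene symbol and library. The submitters' processing notes name HISAT2 2.0.5 and the builds mm39 and hg38, without saying which was used; how genes were counted, on which strand and with which annotation is not given in the sources used here. The labels' description adds the words 10X Genomics, although each library is a bulk RNA sample by the extract protocol. All 6 columns were used. Low FPKM values were whole multiples of 1 read: 100% of 16220 rows above 0 in at least 2 libraries gave whole reads within 1e-06, against 0% of 500 perturbed rows, and these reads give the depths (23490008 to 55830235) and an alternative test.

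FPKM was transformed as log2(FPKM + 1) and fitted in limma 3.58.1 (R 4.3.3, variance trend, two-sided, Benjamini-Hochberg over 9691 genes at 0.05), with fraction and genotype (3 residual degrees of freedom), and with 1 coefficient per group for the contrasts within genotypes and their interaction (2 residual degrees of freedom). Fold changes of low genes are understated on this scale. In simulated data with the real means and residual spread, 67, 67 and 66 genes were changed by 0.5, 1 and 2 (log2) and 9491 were left unchanged. Of the changed genes 52.2%, 92.5% and 98.5% were called, and of unchanged genes 0.0421%. Far fewer genes were changed than the 2655 called in the data, the noise was independent, and no change depended on genotype. The rates therefore hold for that setting only.

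Genes are named by rule: the 20 largest rises and falls among called genes whose mean over libraries reached 5 FPKM, with no overlap within a genotype, up to 3 called members per list and direction, 34 key genes, the 5 largest interactions each way and the genes at the limit. Some named genes are not reported here. Other members of a list are named to complete it and were chosen after their values were seen. The members and the 40 lists were chosen with earlier results of these data known. Some genes are in several lists, such as Ifit3 (interferon and memory) and Cxcr3 (memory and chemokine receptors), so counts of different lists can overlap. Motifs were searched in the 250 bases before the start in RefSeq promoters; AAANNGAAA was added after seeing the data. Gene families with near-identical copies, overlapping and antisense genes are uncertain. Alternatives covered pseudocounts, filters, scalings, the variance model, gene length, recovered reads, a replicate block and leaving out each library.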

Additional observations from a re-analysis of the deposited data

Results flagged for a closer look

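Each of the following genes had a CD44hi minus CD44lo difference that differed between Dusp2KO and WT at an adjusted p under 0.05 in limma; the values are Dusp2KO minus WT on the log2(FPKM + 1) scale. Each rests on 1 CD44lo library per genotype. The part of transcript length in these differences was not tested. The difference was more positive in Dusp2KO for Xist (4.02), Psme2b (2.27), Ighj1 (2.07), Ankhd1 (1.84), Atm (1.71), Gbp11 (0.92), Utp20 (0.76), Top2a (0.64) and Dnmt1 (0.56). It was more negative in Dusp2KO for H3c1 (-1.41), Snord34 (-1.39), Snora41 (-1.21), Gzmc (-1.21), Cxcr3 (-1.19), Ifng (-1.06), Cdkn1b (-0.85), Ly6c2 (-0.68), Fam240a (-0.67), Tsc22d3 (-0.64), Cd83 (-0.64), Slfn1 (-0.61), Serpinb6b (-0.56) and Nfkbid (-0.55).

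Xist went from 0 FPKM in Dusp2KO CD44lo to 15.1 and 15.5 in Dusp2KO CD44hi, while the Y-linked Eif2s3y stood at 18.4 FPKM in the former and 13.4 and 13.8 in the latter. Psme2b, a close copy of the proteasome activator Psme2, was at 3.38, 4.34, 4.01 and 5.26 FPKM in the CD44hi and 19.0 and 3.80 FPKM in the CD44lo libraries, so the WT CD44lo library alone was high. Cdkn1b, the inhibitor p27, was at 9.02, 9.12, 5.97 and 4.98 FPKM in the CD44hi and 14.2 and 16.6 FPKM in the CD44lo libraries. Snora41 and Snord34 are small nucleolar RNAs lying inside host genes, and Ighj1 is a short joining segment, so their FPKM rest on few bases.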

How the results depend on the processing

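Of 218 named genes 200 passed the threshold. None of the 200 changed direction in any of 20 alternatives, and 134 passed in every alternative that tested them. The lack of reversals was largely fixed in advance, as a call required the same sign in both genotypes. Without a CD44lo library the difference is that of the other genotype alone. Changes to the filter or the variance model leave the difference as it was. Genes that no longer passed numbered 10 or fewer per alternative, except without a filter (25), with no genotype term (58), with a replicate block (36) and without WT CD44hi 1 (31), Dusp2KO CD44hi 1 (27), Dusp2KO CD44hi 2 (32) or Dusp2KO CD44lo (21). Whole-read counts fitted with limma voom gave 1553 higher and 989 lower.

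Genes called higher with genotype in the model numbered 1610, and 999 with the replicate block, 738 with no genotype term and 913 to 2287 with 1 library left out. Genes called lower numbered 1045, and 602 with the block, 482 with no genotype term, 1596 for the average of the contrasts within genotypes, 1585 without the length trend and 642 to 1599 with 1 library left out. In WT, 1490 higher and 1037 lower became 529 and 641 with no filter, and 1284 to 2463 and 887 to 1626 with 1 library left out. In Dusp2KO, 2285 and 1603 became 1154 and 931 with no filter, 965 lower after rescaling to a total of 1000000, and 1531 to 3180 and 969 to 2335 with 1 library left out. The interaction, 265 higher and 144 lower, gave 22 and 17 with no filter, 462 and 222 after median-ratio scaling, 92 and 25 with no variance trend, 821 and 744 with the block, 250 lower at a minimum of 5 FPKM, 38 lower after rescaling, and 228 to 1633 and 116 to 1413 with 1 library left out. Leaving out a library also leaves fewer degrees of freedom. Leaving out a CD44lo library also removes the rule on the sign from the calls with genotype in the model. Otherwise the cause was not tested.

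Genes that did not pass and changed sign are given with their lowest and highest value when 1 library was left out: Dusp2 (-0.47 to 0.020), Ccr7 (-0.016 to 0.13), Ly6c2 (-0.021 to 0.66), Itga4 (-0.56 to 0.54), Nkg7 (-0.14 to 0.26), Psme2b (-2.05 to 0.22), Ighj1 (-0.16 to 1.92), Ankhd1 (-0.44 to 1.40), Atm (-0.39 to 1.33) and Snora41 (-0.74 to 0.47). Both ends come from leaving out a CD44lo library, except for Ccr7. Median-ratio scaling gave -0.0083 for Ccr7 and -0.014 for Nkg7, quantile normalization 0.020 for Myc, rescaling 0.039 and the replicate block 0.080 for Itga4. Under the replicate block, same-numbered libraries share only a number: the correlation of their deviations was 0.02, so the pairing was not used. The 23490008 reads of Dusp2KO CD44lo limit its low genes: 3 reads of a transcript of 1 kb are 0.128 FPKM there and 0.0537 to 0.0701 FPKM in the other libraries.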

Other observations

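Some genes of 3 further groups were called in both directions. Of 28 integrin and adhesion genes 9 were called higher and 6 lower by limma, against 16.6% and 10.8% of all genes; Itgav (0.94) and Itgax (0.90) rose after Itgb1, while Itgb7 (-0.72), the gut homing integrin chain, and Pecam1 (-0.78) fell. Cytoskeleton genes were near those shares, 10 of 45 (22.2%) higher and 6 (13.3%) lower, with a median of -0.15, opposite in sign to the majority of calls; the tubulin Tubb6 (1.62 ± 0.08), the microtubule destabiliser Stmn1 (1.34 ± 0.09) and the actin capper Capg (1.21 ± 0.12) rose, and the actin regulators Coro1a (-0.64), Ezr (-0.42) and Tmsb4x (-0.42) fell. The higher count was 6 without WT CD44hi 1 or Dusp2KO CD44hi 1 and 5 without Dusp2KO CD44hi 2, and the lower count 2 without WT CD44hi 1 or Dusp2KO CD44hi 2 and 16 without WT CD44lo; median-ratio scaling gave 6 and 11. Of 34 lysosome and autophagy genes 8 (23.5%) were higher and 5 (14.7%) lower, also near them; Gabarapl1 (0.75) and Grn (0.75) rose and Npc2 (-0.90), Ctss (-0.87) and Sqstm1 (-0.72) fell, the higher count being 4 without Dusp2KO CD44hi 2 and 5 without WT CD44hi 1, Dusp2KO CD44hi 1 or Dusp2KO CD44lo, and the lower count 8 without WT CD44lo and 3 without WT CD44hi 1, Dusp2KO CD44hi 1 or Dusp2KO CD44hi 2.

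Of 23 NF-kB genes 2 rose, Nfkb1 (0.51) and Bcl2a1d (0.55), and 5 fell, with the inhibitors Nfkbid (-0.64), Nfkbia (-0.42) and Tnfaip3 (-0.39) among them; after median-ratio scaling 10 were lower, and 2 were lower without Dusp2KO CD44hi 2 and 3 without WT CD44hi 1. The higher count was 1 without WT CD44hi 1, 4 without WT CD44hi 2 and 5 without WT CD44lo. Of 25 p53 target genes 3 (12%) rose and 3 (12%) fell, near the 16.6% and 10.8% of all genes. Plk2 (0.69), Tnfrsf10b (0.53) and Tigar (0.36) were on the higher side. Trp53inp1 (-1.02) and Btg2 (-0.90), which restrain growth, and Trp53 (-0.24), the gene of p53 itself, were on the lower side. The median of the p53 list was -0.006, and 0.066 in Dusp2KO alone. In that list 1 was higher without WT CD44hi 1 or Dusp2KO CD44hi 1. Of 26 heat shock and chaperonin genes 4 (15.4%) rose, near the share of all genes, and 1 (3.85%) fell. There were 0 of either without WT CD44hi 1, Dusp2KO CD44hi 1 or Dusp2KO CD44hi 2 and 0 higher after median-ratio scaling. Of 42 genes of the citric acid cycle and mitochondrial import 4 rose; the count was 2 without Dusp2KO CD44hi 1, 1 without Dusp2KO CD44hi 2, 7 without WT CD44lo and 10 without Dusp2KO CD44lo. Of the 13 mitochondrially encoded genes 6 were called lower and 0 higher.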
